A study of Rattus norvegicus with 24 samples.

Results

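The mRNA levels of 39 cell cycle and mitotic spindle genes were examined in the brain stem of rats that were fed rotenone. The genes were taken as a list of symbols, which was proposed with results of these arrays known, and each symbol was looked up in the annotation of the array. All 39 were found among the 22093 genes that the array measured under a symbol. Male Wistar rats of the strain RccHan:WIST, aged 7 to 8 weeks, received 400 ppm rotenone in the chow or the same chow without it for 1, 3 or 14 days. Of the 5 rats of each diet and day, 4 were put on arrays, with 1 rat on each array, which gave 6 groups of 4 and 24 arrays. Pieces of brain stem tissue were used and not sorted cells, so that a level is a mean over all cell types of the piece. Fewer cells of a type and less RNA in each cell cannot be told apart in such samples.

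Rotenone blocks complex I of the mitochondrial respiratory chain and also binds tubulin, the protein of which the mitotic spindle is built. A dividing cell passes from G1 through DNA replication and G2 into mitosis, and most of the 39 genes are transcribed only in cells that are on this way. Cyclins switch on their kinases in turn, the spindle separates the chromosomes under the watch of a checkpoint at the kinetochores, and the daughter cells are then cut apart. Neurons of the adult brain do not divide, and precursors of oligodendrocytes are the main cells that do in the adult brain stem, beside some endothelial cells and microglia.

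Each array had a median intensity of 70.7 to 82.6, and 4 rats in a group limit the precision. Samples of a group did not always hold the same tissue. The mean log2 intensity of 16 genes of the cerebellum, which lies next to the brain stem, was 11.8 and 11.36 in replicates 1 and 3 of the controls of day 1, but between 7.88 and 8.88 in the other 22 arrays. In the same 2 arrays, 13 genes of brain stem neurons had the lowest means of all, 7.54 and 7.45, against 7.78 to 8.70 elsewhere. For the genes whose values of day 1 moved most, the values without these arrays are given as well. Single genes of the brain stem neuron list differed between the other arrays too. Tph2 was 6.551 in rotenone day 1 replicate 3 and 7.555 in control day 14 replicate 1, but 12.33 in rotenone day 3 replicate 1. Hoxb5 was 8.422 in rotenone day 3 replicate 2 and 6.026 in replicate 4 of that group.

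The levels of the genes were low. Of the 39 genes, 21 had a mean above that of the median transcript, which was 6.24 on the log2 scale. This held for 5 of 5 cyclins, kinases and adaptors of the step from G1 to S, for 3 of 5 genes of DNA replication and for 7 of 10 genes of mitotic entry. It also held for 4 of 7 genes of the spindle and the mitotic chromosomes, but for 1 of 6 kinetochore genes, Cenpe, and for 1 of 6 genes of the chromosomal passenger complex and cytokinesis, Racgap1. Among the genes given later in every rat, Cdk1, Cks2, Kif2c, Top2a, Bub1, Bub1b, Aurkb, Birc5 and Kif20a had a mean below the median transcript. How bright a transcript is on an array also depends on its probes, so levels were compared between rats and not between genes. For 13 of the 39 genes the RefSeq annotation names a pseudogene or a like copy, whose RNA may share probes with the gene.

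Many promoters of such genes carry CCAAT, the letters bound by NF-Y, and near the transcription start the cell cycle genes homology region (CHR) described in human and mouse cells, whose letters are TTTGAA or, more rarely, TTCGAA. RefSeq windows of the GRCr8 assembly, from 250 bases before to 50 bases after the annotated start, were at hand for 31 of the 39 genes, and both strands were searched. CCAAT was found in 25 of the 31 windows (80.6%), compared to 37.7% of 27457 windows of all genes. At least 2 of them were found in 19 windows (61.3%), compared to 11.5%. The CHR letters stood in 19 windows (61.3%), compared to 19.5%. Both kinds together were found in 17 windows (54.8%), compared to 7.83% of all windows and 7.63% of those of protein-coding genes. A match is only a match of letters. The 250 bases before the start are shown for 5 genes, which are those with such a window among the 7 with lower values at day 14 described below. They are written 5′ to 3′ on the strand of the gene, with the letters of CCAAT and of the CHR in capitals on whichever strand they stood.
Mki67, chr1:199952594-199952843, reverse strand: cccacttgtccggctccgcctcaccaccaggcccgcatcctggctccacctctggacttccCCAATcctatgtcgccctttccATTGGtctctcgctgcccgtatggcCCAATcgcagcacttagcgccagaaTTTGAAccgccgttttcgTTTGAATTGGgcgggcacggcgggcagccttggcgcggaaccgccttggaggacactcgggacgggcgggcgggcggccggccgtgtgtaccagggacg
Top2a, chr10:84473094-84473343, reverse strand: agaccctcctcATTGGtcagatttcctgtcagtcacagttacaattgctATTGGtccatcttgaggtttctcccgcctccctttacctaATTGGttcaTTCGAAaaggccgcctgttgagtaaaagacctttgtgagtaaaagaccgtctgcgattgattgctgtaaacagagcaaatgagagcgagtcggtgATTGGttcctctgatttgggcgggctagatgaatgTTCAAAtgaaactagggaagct
Cks2, chr17:13727520-13727769, reverse strand: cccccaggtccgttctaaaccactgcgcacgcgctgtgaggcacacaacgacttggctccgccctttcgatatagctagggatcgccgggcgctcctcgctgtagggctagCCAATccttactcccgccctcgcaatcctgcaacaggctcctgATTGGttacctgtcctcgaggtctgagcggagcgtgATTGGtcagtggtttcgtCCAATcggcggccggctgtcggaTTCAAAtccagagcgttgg
Cdc25b, chr3:138859923-138860172, forward strand: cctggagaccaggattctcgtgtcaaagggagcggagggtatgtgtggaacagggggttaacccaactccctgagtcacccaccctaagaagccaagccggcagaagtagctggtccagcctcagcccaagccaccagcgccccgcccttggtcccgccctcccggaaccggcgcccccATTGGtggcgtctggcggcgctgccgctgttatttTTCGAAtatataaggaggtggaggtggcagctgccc
Plk1, chr1:186147408-186147657, forward strand: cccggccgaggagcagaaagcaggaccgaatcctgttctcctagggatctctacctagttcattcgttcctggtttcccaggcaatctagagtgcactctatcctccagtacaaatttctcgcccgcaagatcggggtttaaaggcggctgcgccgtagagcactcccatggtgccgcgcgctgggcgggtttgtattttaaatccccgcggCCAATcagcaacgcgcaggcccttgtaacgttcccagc
The stretches of Mki67, Top2a and Cks2 hold 4 matches of CCAAT each, and those of Cdc25b and Plk1 hold 1. Mki67 and Top2a have 2 CHR matches, Cks2 and Cdc25b have 1, and Plk1 has none before the start. In Mki67 a CHR match at position -99, counted from the start, shares its last base with a match of CCAAT on the other strand at -94, which is the only overlap in the 5 stretches.

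None of the 39 genes passed the test of limma between rotenone-fed and control rats at any of the 3 days, on average over the days, or for an interaction of treatment and time, at an adjusted p of 0.05 over all 68842 transcript clusters. Of all clusters, 0% passed at day 1, 0% at day 3, 0.0378% at day 14, 0.00291% on average and 0% for the interaction. The lowest adjusted p among the genes was 0.544 at day 1, 1 at day 3, 0.26 at day 14, 0.265 on average and 0.962 for the interaction. By least squares without moderation also 0 of the 39 passed. The criteria of the study were likewise met by 0 of the 39 and by 0.0247% of all clusters. They ask for an ANOVA P below 0.001, a Kruskal-Wallis P below 0.05 and a deregulation of at least 1.8-fold. Mean ratios of the genes to the controls of the day lay between 0.83 (Racgap1) and 1.21 (Cdc25b) at day 1 and between 0.675 (Rrm2) and 1.1 (Ccne1) at day 3. At day 14 they lay between 0.587 (Mki67) and 1.18 (Bub1b).

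At an unadjusted p below 0.05 in limma, 1 gene was lower (Racgap1) and 1 was higher (Kif20a) at day 1, compared to 3.2% and 4.45% of all clusters. At day 3 the lower genes were 7 of 39, namely Rrm2, Ccna2, Ccnb2, Plk1, Top2a, Kif20a and Prc1, and 0 were higher, compared to 1.29% and 1.88% of all clusters. At day 14 also 7 were lower, namely Ccna2, Cdc25b, Cks2, Plk1, Tpx2, Top2a and Mki67, and 1 was higher, Kif2c, compared to 3.84% and 6.94%. On average over the days 8 were lower (Ccna2, Cks2, Plk1, Tpx2, Top2a, Mki67, Prc1 and Racgap1) and 1 was higher (Ccne1), compared to 3.35% and 7.43%. Of the lower genes, Ccna2, Plk1 and Top2a were the same at day 3 and day 14. The rats of these days differ, but both comparisons use the same estimate of the spread of a gene. The share of all clusters lower at both days was not counted. For the interaction 3 genes had an unadjusted p below 0.05, namely Cdc25b, Rrm2 and Kif20a, compared to 5.1% of all clusters. Such counts are not calls.

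**Figure D1:**
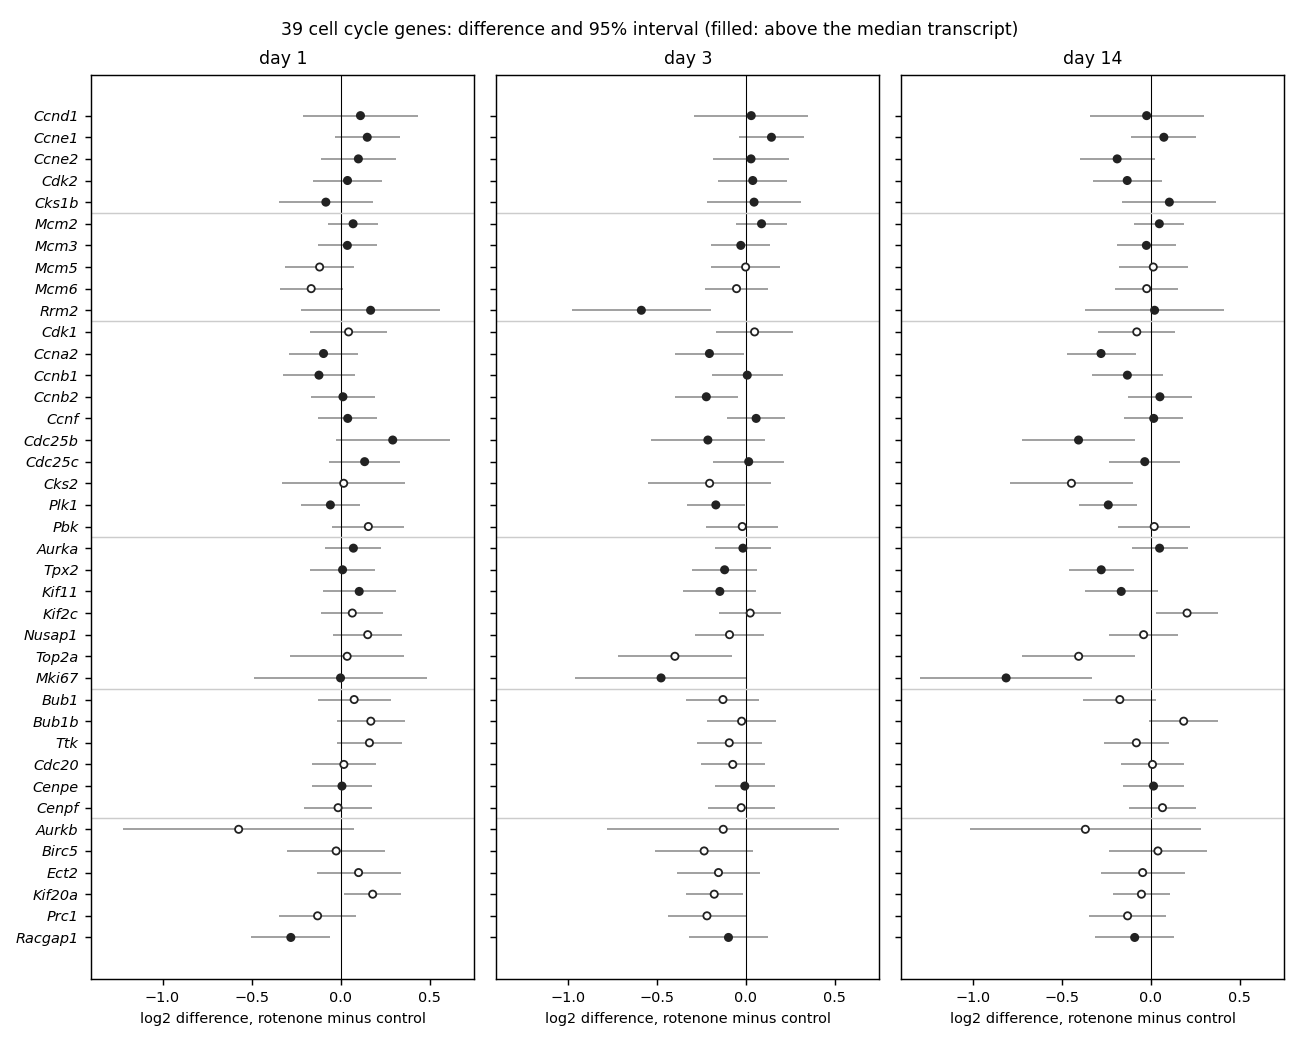
Log2 difference of rotenone-fed minus control rats (horizontal axis) for the 39 genes in rows, in 6 blocks by role, at days 1, 3 and 14. Points are differences of means of 4 rats, lines are 95% intervals from limma, and filled points are the 21 genes above the median transcript. Most intervals include 0, and the farthest point from it is Aurkb at day 1, Rrm2 at day 3 and Mki67 at day 14.

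Counts of lower genes moved with the scaling of the arrays. As deposited, 12 of 39 genes (30.8%) were lower in rotenone-fed rats at day 1, 28 (71.8%) at day 3, 24 (61.5%) at day 14 and 25 (64.1%) on average. After quantile normalization these were 18 (46.2%), 28 (71.8%), 32 (82.1%) and 30 (76.9%). With each array centred on its median they were 18 (46.2%), 28 (71.8%), 36 (92.3%) and 34 (87.2%). Centring moved each of the 39 genes by the same amount, -0.0905 at day 14, so that the higher count is that of genes near 0 which passed below it. Genes with a lower value at an unadjusted p below 0.05 were 7, 10 and 12 at day 14 under the 3 scalings, but 7, 6 and 4 at day 3, and 8, 10 and 10 on average. The share of all clusters at that p was counted on the deposited scale only. Here and below, such counts under the other scalings therefore cannot be read as results about the genes. The median difference of the 39 genes was 0.038 at day 1, -0.073 at day 3, -0.04 at day 14 and -0.02 on average. The median over all clusters was 0.0329, 9e-04, 0.0531 and 0.0267, and over all genes with a symbol 0.0336, 0.0053, -0.0051 and 0.0101. At day 14 the median over all clusters was 0.000374 after quantile normalization and -0.0374 after centring. After centring, lower values were thus the more common ones over all clusters too.

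Values of day 1 rested in part on the 2 control arrays with cerebellar transcripts, which did not act alike. Of the 39 genes, 12 were lower at day 1 with all arrays. Without replicate 3 alone 22 were lower, but without replicate 1 alone 9 were. Without both, the median difference of the 39 genes at day 1 was -0.00473 instead of 0.038, and 11 genes changed sign. The lowest difference was then that of Mki67, -0.26, and the highest that of Rrm2, 0.19. Cdc25b was at 0.077 instead of 0.29, and Aurkb at -0.028 instead of -0.57. Genes that came closer to 0 also included Ccne1 at 0.029, Kif11 at -0.014, Aurka at -0.0011, Mcm6 at -0.062, Ttk at 0.077, Pbk at 0.089 and Bub1b at 0.11. Ccnb1, at -0.20, Cks2, at 0.15, and Cdk1, at -0.10, came to lie farther from 0. None of the 39 was called at day 1 or on average without these arrays, and 0 had an unadjusted p below 0.05 at day 1.

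**Figure D2:**
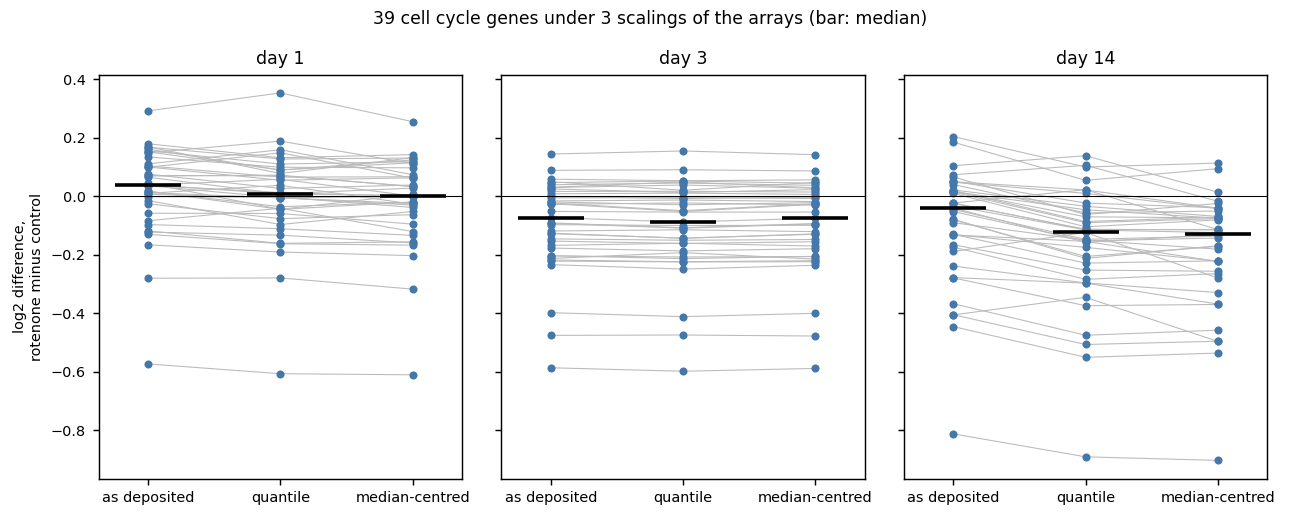
Log2 difference of rotenone-fed minus control rats (vertical axis) for the 39 genes on the deposited scale, after quantile normalization and with arrays centred on their median (horizontal axis), at days 1, 3 and 14. Each point is a gene, grey lines join the same gene, and black bars are medians. At day 14 the bar lies at -0.04 as deposited and at -0.13 after centring, while at day 3 the 3 bars lie close together.

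Mki67 encodes Ki-67, the coat protein of mitotic chromosomes that is used as a marker of dividing cells. Control rats had Mki67 at 7.02, 7.18, 6.34 and 7.21 on the log2 scale at day 1, 7.24, 7.16, 6.85 and 7.07 at day 3 and 6.91, 6.65, 7.05 and 7.43 at day 14. Rotenone-fed rats had Mki67 at 6.89, 7.60, 6.88 and 6.37 at day 1, 6.31, 7.15, 6.47 and 6.51 at day 3 and 6.51, 6.05, 6.20 and 6.03 at day 14. At day 14 all 4 rotenone-fed rats were below all 4 controls, at day 3 all but replicate 2 were below, and at day 1 the groups overlapped. The groups did not overlap in 2.81% of all clusters with lower values at day 14. The difference was -0.0012 ± 0.23 (standard error) at day 1, or -0.26 ± 0.27 without the 2 arrays with cerebellar transcripts, -0.48 ± 0.23 at day 3 and -0.81 ± 0.23 at day 14. For day 14 the 95% interval was -1.30 to -0.33, with an adjusted p of 0.26 in limma. The exact two-sided permutation p was 0.029, the smallest that 4 rats against 4 can give, and exact p-values of other genes below are of the same kind. Groups without overlap always give this value, so beside them it adds nothing. The difference lay between -0.93 and -0.67 when any 1 array was left out and between -0.90 and -0.81 under the other alternatives.

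Top2a encodes the topoisomerase that untangles replicated chromosomes. Control rats had Top2a at 6.38, 6.27, 5.76 and 6.35 on day 1, 6.38, 6.37, 6.32 and 6.59 on day 3 and 6.21, 5.92, 6.42 and 6.39 on day 14. Rotenone-fed rats had Top2a at 6.40, 6.50, 6.22 and 5.79 on day 1, 5.94, 6.31, 5.88 and 5.94 on day 3 and 5.85, 5.79, 5.93 and 5.75 on day 14. The groups of day 3 touched without overlap, with the rotenone-fed replicate 2 just below the lowest control. In lower values this was so for 1.08% of all clusters at day 3. At day 14 the rotenone-fed rat with the highest value, replicate 3, exceeded control replicate 2 only. The difference was -0.40 ± 0.15 at day 3 (exact permutation p = 0.029, adjusted p = 1 in limma) and -0.40 ± 0.15 at day 14 (exact permutation p = 0.057, adjusted p = 0.374 in limma).

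Tpx2, which activates the kinase Aurora A on spindle microtubules, was 7.35, 7.31, 7.09 and 7.29 in the controls of day 1, 7.24, 7.20, 7.29 and 7.31 in those of day 3 and 7.40, 7.19, 7.45 and 7.33 in those of day 14. Rotenone-fed rats had Tpx2 at 7.29, 7.37, 7.29 and 7.12 on day 1, 7.04, 7.35, 7.09 and 7.08 on day 3 and 7.18, 6.95, 7.00 and 7.11 on day 14. Replicate 2 of the rotenone-fed rats of day 3 lay above all controls and the other 3 lay below them, and at day 14 the groups did not overlap. The difference at day 14 was -0.28 ± 0.088 (exact permutation p = 0.029, adjusted p = 0.304 in limma). Kif2c, a kinesin that takes microtubules apart, lay in the other direction. Control rats had Kif2c at 5.87, 5.84, 5.83 and 6.04 at day 1, 5.83, 5.81, 5.82 and 6.00 at day 3 and 5.87, 5.91, 5.72 and 5.74 at day 14, and rotenone-fed rats had 5.98, 5.91, 6.12 and 5.82 on day 1, 5.88, 5.84, 5.89 and 5.95 on day 3 and 5.91, 5.92, 6.11 and 6.12 on day 14. At day 14 the lowest rotenone-fed rat touched the highest control from above, and the difference of the means was 0.20 ± 0.083 (exact permutation p = 0.029, adjusted p = 0.4 in limma). Groups did not overlap in 2.52% of all clusters with higher values at that day, and the difference of Kif2c was 0.11 after centring. The other genes of the spindle were Aurka, Kif11 and Nusap1, with differences between -0.091 and 0.15 for Nusap1, between -0.17 and 0.10 for Kif11 and between -0.016 and 0.071 for Aurka over the 3 days.

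**Figure D3:**
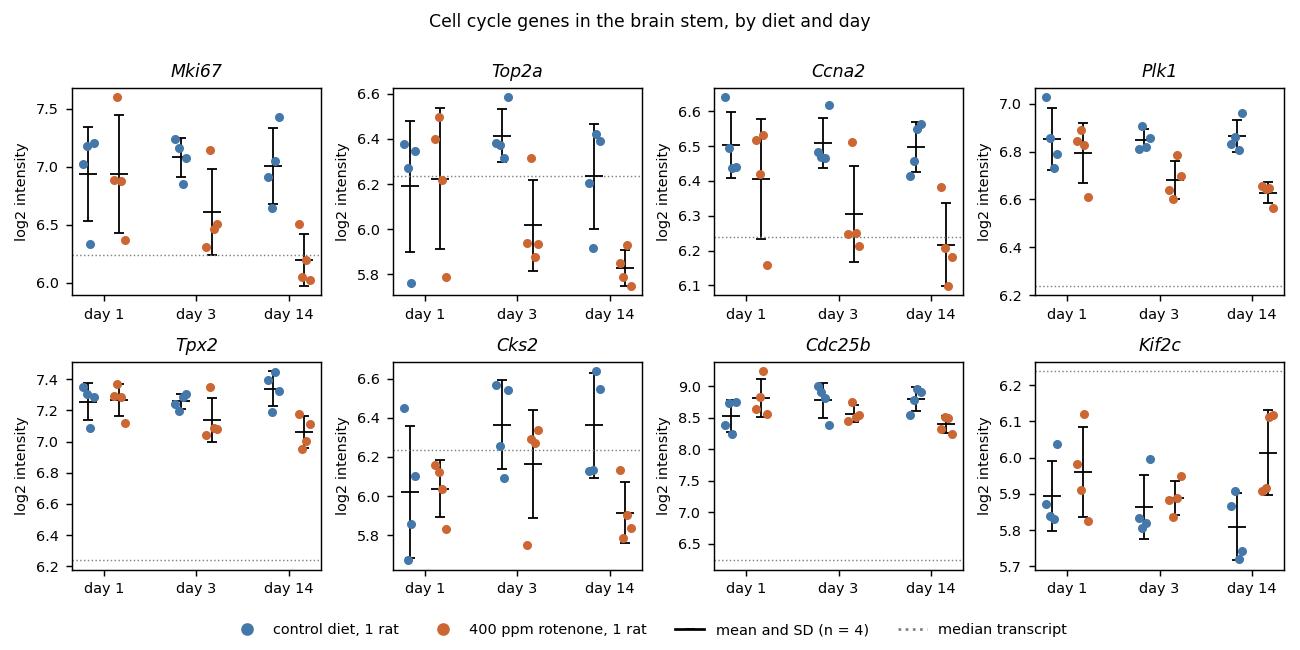
Log2 intensity (vertical axis) of 8 genes in each rat, by day (horizontal axis), with control rats in blue, rotenone-fed rats in orange, black marks for the mean and SD of 4 rats and a dotted line for the median transcript. The vertical scale differs between panels. At day 14 the 4 rotenone-fed rats lie below the 4 controls for Mki67, Ccna2, Plk1, Tpx2 and Cdc25b and above them for Kif2c, whereas Top2a and Cks2 overlap.

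Among the genes of mitotic entry, Plk1 encodes the polo-like kinase that acts from the entry into mitosis until cytokinesis. Control rats had Plk1 at 7.03, 6.86, 6.73 and 6.79 at day 1, 6.81, 6.91, 6.82 and 6.86 at day 3 and 6.83, 6.86, 6.81 and 6.96 at day 14. Rotenone-fed rats had Plk1 at 6.85, 6.89, 6.83 and 6.61 on day 1, 6.64, 6.60, 6.79 and 6.70 on day 3 and 6.66, 6.65, 6.65 and 6.56 on day 14. No rotenone-fed rat of day 3 or day 14 reached a control of its day. The difference was -0.17 ± 0.079 at day 3 (exact permutation p = 0.029, adjusted p = 1 in limma) and -0.24 ± 0.079 at day 14 (exact permutation p = 0.029, adjusted p = 0.324 in limma), and 11 of 12 rotenone-fed rats lay below the control mean of their day.

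Ccna2 encodes cyclin A, which drives replication and the entry into mitosis. Its values in control rats were 6.64, 6.50, 6.44 and 6.44 at day 1, 6.48, 6.47, 6.47 and 6.62 at day 3 and 6.42, 6.46, 6.55 and 6.56 at day 14. Rotenone-fed rats had Ccna2 at 6.52, 6.42, 6.53 and 6.16 on day 1, 6.25, 6.51, 6.25 and 6.21 on day 3 and 6.38, 6.21, 6.10 and 6.18 on day 14. At day 3 replicate 2 stood among the controls and the other 3 below them, and at day 14 all 4 stood below. The difference was -0.28 ± 0.093 at day 14 (exact permutation p = 0.029, adjusted p = 0.331 in limma) and -0.19 ± 0.054 on average over the days (adjusted p = 0.265 in limma), the lowest adjusted p of the 39 genes on average.

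Cdc25b, a phosphatase that switches on the cyclin-dependent kinases, had 8.39, 8.74, 8.24 and 8.75 in the control rats of day 1, 9.01, 8.91, 8.81 and 8.39 in those of day 3 and 8.54, 8.79, 8.96 and 8.90 in those of day 14. Rotenone-fed rats had Cdc25b at 8.65, 8.83, 9.24 and 8.56 on day 1, 8.46, 8.75, 8.51 and 8.54 on day 3 and 8.32, 8.52, 8.49 and 8.25 on day 14. The difference was 0.29 ± 0.15 at day 1, the highest of the list at that day, but 0.077 ± 0.18 without the 2 arrays with cerebellar transcripts. It was -0.41 ± 0.15 at day 14 (exact permutation p = 0.029, adjusted p = 0.375 in limma), when every rotenone-fed rat lay below every control. Its interaction of treatment and time had an adjusted p of 0.962 in limma. Cks2, a small adaptor of these kinases, had 6.45, 5.67, 5.86 and 6.10 on day 1, 6.57, 6.26, 6.10 and 6.54 on day 3 and 6.13, 6.13, 6.64 and 6.55 on day 14 in control rats and 6.16, 6.12, 6.03 and 5.83 on day 1, 5.75, 6.29, 6.27 and 6.34 on day 3 and 6.14, 5.79, 5.90 and 5.84 on day 14 in rotenone-fed rats. At day 14 rotenone-fed replicate 1 lay within the range of the controls, and the difference was -0.45 ± 0.17 (exact permutation p = 0.086, adjusted p = 0.372 in limma).

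Ccnb1 and Ccnb2 encode the cyclins of B type, which start mitosis together with Cdk1, and were not tested against each other. Control rats had Ccnb1 at 6.62, 6.75, 6.51 and 6.71 on day 1, 6.62, 6.52, 6.72 and 6.63 on day 3 and 6.81, 6.87, 6.81 and 6.91 on day 14, and rotenone-fed rats had 6.68, 6.50, 6.55 and 6.38 on day 1, 6.56, 6.92, 6.48 and 6.58 on day 3 and 6.59, 6.66, 6.89 and 6.75 on day 14. Groups of Ccnb1 overlapped at each day, and its differences were -0.12, 0.0084 and -0.13. Control rats had Ccnb2 at 6.50, 6.55, 6.30 and 6.42 on day 1, 6.49, 6.42, 6.45 and 6.58 on day 3 and 6.30, 6.43, 6.50 and 6.32 on day 14, and rotenone-fed rats had 6.56, 6.42, 6.58 and 6.25 on day 1, 6.12, 6.37, 6.27 and 6.29 on day 3 and 6.43, 6.38, 6.50 and 6.45 on day 14. At day 3 all rotenone-fed rats lay below all controls in Ccnb2, with a difference of -0.22 ± 0.086 (exact permutation p = 0.029, adjusted p = 1 in limma), whereas at day 14 it was 0.051 ± 0.086. A further cluster annotated as Ccnb2, with a lower mean of 5.79, had -0.29 ± 0.16 at day 3 and -0.21 ± 0.16 at day 14. Cdk1, the kinase of mitosis, was at 4.93, 5.29, 4.86 and 5.08 on day 1, 5.02, 5.16, 4.90 and 5.07 on day 3 and 4.86, 5.13, 5.13 and 5.06 on day 14 in control rats and at 4.97, 5.14, 5.13 and 5.10 on day 1, 4.98, 5.19, 5.01 and 5.17 on day 3 and 4.70, 5.00, 5.09 and 5.07 on day 14 in rotenone-fed rats. Its groups overlapped throughout, and its differences were 0.044, 0.05 and -0.078, of which that of day 14 turned to 0.0087 without rotenone day 14 replicate 1 and was -0.21 after quantile normalization. For the cyclin F gene Ccnf, the phosphatase gene Cdc25c and the mitotic kinase gene Pbk, the differences lay between -0.034 (Cdc25c, day 14) and 0.15 (Pbk, day 1).

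In DNA replication, Rrm2 encodes the subunit of ribonucleotide reductase that limits the supply of deoxynucleotides. Control rats had Rrm2 at 6.39, 6.09, 6.04 and 6.25 at day 1, 6.70, 6.23, 6.47 and 6.95 at day 3 and 6.60, 5.96, 6.72 and 6.25 at day 14. Rotenone-fed rats had Rrm2 at 6.14, 6.78, 6.41 and 6.11 on day 1, 6.31, 6.10, 5.80 and 5.80 on day 3 and 6.27, 6.40, 6.77 and 6.17 on day 14. At day 3 replicate 1 of the rotenone-fed rats was above the lowest control, and the difference was -0.59 ± 0.19 (exact permutation p = 0.057, adjusted p = 1 in limma), the lowest of the list at that day. It was 0.17 ± 0.19 at day 1 and 0.022 ± 0.19 at day 14, and the interaction had an adjusted p of 0.962 in limma. Mcm2, a subunit of the helicase that opens DNA, was at 6.96, 6.84, 6.74 and 6.82 on day 1, 6.89, 6.80, 6.90 and 6.90 on day 3 and 6.84, 6.99, 6.86 and 6.95 on day 14 in control rats and at 6.89, 6.83, 7.02 and 6.90 on day 1, 6.92, 6.99, 6.94 and 7.00 on day 3 and 6.97, 6.94, 6.92 and 7.00 on day 14 in rotenone-fed rats. At day 3 the rotenone-fed rats lay above the controls without overlap by a difference of 0.089 ± 0.068 (exact permutation p = 0.029, adjusted p = 1 in limma). Groups did not overlap in 1.32% of all clusters with higher values at that day. The helicase subunits Mcm3, Mcm5 and Mcm6 had differences between -0.17 (Mcm6, day 1) and 0.037 (Mcm3, day 1), with none at an unadjusted p below 0.05.

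For the step from G1 to S, cyclin D, encoded by Ccnd1, passes on growth signals. Control rats had Ccnd1 at 8.27, 8.30, 7.63 and 8.19 on day 1, 8.42, 8.25, 8.34 and 8.48 on day 3 and 8.30, 8.20, 8.50 and 8.31 on day 14, and rotenone-fed rats had 8.15, 7.80, 8.43 and 8.46 on day 1, 8.05, 8.44, 8.41 and 8.72 on day 3 and 8.43, 8.30, 8.21 and 8.28 on day 14. The groups overlapped at each day. Its difference at day 1, 0.11 ± 0.15, was -0.045 without control day 1 replicate 3 and -0.038 without both arrays that held cerebellar transcripts. Ccne1 encodes cyclin E, the partner of Cdk2 at the start of replication. Control rats had Ccne1 at 7.72, 7.87, 7.77 and 8.10 on day 1, 8.08, 7.89, 7.95 and 8.12 on day 3 and 7.86, 8.11, 7.99 and 8.13 on day 14, and rotenone-fed rats had 7.98, 8.06, 8.01 and 8.00 on day 1, 8.16, 8.17, 8.17 and 8.14 on day 3 and 8.04, 8.25, 8.10 and 8.00 on day 14. At day 3 the 4 rotenone-fed rats lay close together and above all controls, with 0.14 ± 0.088 (exact permutation p = 0.029, adjusted p = 1 in limma), and on average the difference was 0.12 ± 0.051 (adjusted p = 0.405 in limma), or 0.082 without the 2 arrays with cerebellar transcripts. In 11 of 12 rotenone-fed rats Ccne1 was above the control mean of the day. Cks1b, the other adaptor of the kinases, had 8.21, 8.20, 7.73 and 7.90 on day 1, 7.80, 7.92, 7.81 and 8.12 on day 3 and 7.96, 7.95, 8.01 and 7.85 on day 14 in control rats and 7.97, 8.10, 8.14 and 7.49 on day 1, 8.02, 7.93, 7.78 and 8.10 on day 3 and 8.04, 8.06, 8.07 and 8.03 on day 14 in rotenone-fed rats. It did not overlap at day 14, with 0.10 ± 0.13 (exact permutation p = 0.029, adjusted p = 0.8 in limma), which was 0.014 under the alternative that moved it most. Cdk2 and the other cyclin E gene, Ccne2, had their lowest differences at day 14, -0.13 and -0.19, with adjusted p = 0.632 and 0.516 in limma.

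Of the kinetochore and checkpoint genes, Bub1b and Bub1 encode checkpoint proteins that hold back anaphase until all chromosomes are attached. Control rats had Bub1b at 5.19, 5.11, 4.90 and 5.22 on day 1, 5.14, 5.12, 5.24 and 5.28 on day 3 and 5.05, 5.37, 5.03 and 5.17 on day 14, and rotenone-fed rats had 5.29, 5.22, 5.22 and 5.37 on day 1, 5.21, 5.04, 5.12 and 5.32 on day 3 and 5.19, 5.31, 5.43 and 5.42 on day 14. Its differences were 0.17 ± 0.093, -0.023 ± 0.093 and 0.18 ± 0.093, and the groups overlapped. That of day 14 was 0.054 after quantile normalization and 0.094 after centring, and that of day 1 was 0.078 after quantile normalization. Control rats had Bub1 at 6.09, 6.15, 5.81 and 5.86 on day 1, 6.13, 5.98, 5.94 and 5.92 on day 3 and 6.07, 5.96, 6.07 and 5.98 on day 14, and rotenone-fed rats had 6.09, 6.06, 6.09 and 5.98 on day 1, 5.82, 6.18, 5.77 and 5.68 on day 3 and 5.90, 5.74, 5.94 and 5.81 on day 14. Here the rotenone-fed rats of day 14 lay below all controls of that day, with -0.17 ± 0.099 (exact permutation p = 0.029, adjusted p = 0.538 in limma), which was -0.28 after quantile normalization. Bub1b and Bub1 thus had differences of opposite sign at day 14, neither with an unadjusted p below 0.05 in limma. Ttk is a kinase of the checkpoint, and Cdc20 starts anaphase. Ttk, Cdc20 and the kinetochore genes Cenpe and Cenpf had differences between -0.093 (Ttk, day 3) and 0.16 (Ttk, day 1).

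The chromosomal passenger complex corrects wrong attachments, and its kinase is Aurora B, encoded by Aurkb. Control rats had Aurkb at 5.77, 5.50, 7.72 and 5.82 on day 1, 5.82, 5.72, 5.86 and 6.04 on day 3 and 6.41, 5.62, 6.05 and 5.50 on day 14, and rotenone-fed rats had 5.70, 5.55, 5.66 and 5.60 on day 1, 5.96, 6.05, 5.32 and 5.61 on day 3 and 5.39, 5.62, 5.65 and 5.46 on day 14. The value of control day 1 replicate 3 was far above those of the other 23 rats, and the difference of day 1, -0.57 ± 0.31, rested on it. On average over the days the difference of Aurkb was -0.36 ± 0.18, and -0.19 without that array. The other array with cerebellar transcripts, replicate 1, had Aurkb within the range of the rest. Birc5 encodes survivin, a further subunit of the complex. Control rats had Birc5 at 6.16, 5.86, 5.93 and 6.10 on day 1, 5.96, 6.30, 6.04 and 6.60 on day 3 and 6.12, 6.02, 5.88 and 6.26 on day 14, and rotenone-fed rats had 6.18, 6.10, 6.03 and 5.65 on day 1, 6.03, 5.90, 6.05 and 5.98 on day 3 and 5.97, 6.09, 6.31 and 6.07 on day 14. The groups overlapped at each day, with differences of -0.026, -0.23 and 0.04, of which that of day 3 was -0.11 without control day 3 replicate 4.

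Racgap1, part of the complex that places the cleavage furrow, was the gene of lowest adjusted p at day 1. Control rats had Racgap1 at 6.87, 6.81, 6.92 and 6.78 on day 1, 6.76, 6.63, 6.73 and 6.85 on day 3 and 6.80, 6.62, 6.57 and 6.69 on day 14, and rotenone-fed rats had 6.66, 6.65, 6.59 and 6.37 on day 1, 6.61, 7.02, 6.39 and 6.55 on day 3 and 6.66, 6.44, 6.64 and 6.57 on day 14. At day 1 no rotenone-fed rat reached a control, as in 1.21% of all clusters with lower values, and the difference was -0.28 ± 0.11 (exact permutation p = 0.029, adjusted p = 0.544 in limma). Without both arrays that held cerebellar transcripts the difference was -0.23, and a further cluster of Racgap1 had -0.17 ± 0.091. Kif20a, a kinesin of the central spindle, lay in opposite directions at days 1 and 3. Control rats had Kif20a at 6.01, 6.01, 5.94 and 6.01 on day 1, 6.18, 6.13, 6.16 and 6.26 on day 3 and 6.01, 6.10, 6.15 and 6.10 on day 14, and rotenone-fed rats had 6.26, 6.16, 6.19 and 6.07 on day 1, 5.94, 6.04, 5.98 and 6.06 on day 3 and 6.03, 5.82, 6.18 and 6.11 on day 14. At day 1 it was higher without overlap (2.42% of all clusters with higher values), with 0.18 ± 0.077, and at day 3 lower without overlap, with -0.18 ± 0.077. The difference of day 1 was 0.16 without both arrays that held cerebellar transcripts. The interaction of treatment and time had an adjusted p of 0.962 in limma, so a change of its difference with the days was not called. Prc1, which bundles the microtubules of the central spindle, had -0.22 ± 0.10 at day 3 (adjusted p = 1 in limma), and Ect2, the activator of the furrow, had -0.15 ± 0.11.

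Time was compared within each diet. Of the 39 genes 0 passed in limma from day 1 to day 3 or from day 3 to day 14 in either diet, compared to 0.0189% of all clusters from day 3 to day 14 in rotenone-fed rats and 0% in the other 3 comparisons. At an unadjusted p below 0.05, control rats had 2 genes higher at day 3 than at day 1, Rrm2 by 0.40 and Kif20a by 0.19, and 0 lower, compared to 4.47% and 3.68% of all clusters. Without the 2 arrays with cerebellar transcripts these were 0.42 and 0.17, neither at an unadjusted p below 0.05, and Cks2 was the only gene at that level, with 0.48. From day 3 to day 14 they had 1 higher, Ccnb1 by 0.23, and 0 lower, compared to 1.35% and 2.18%. Rotenone-fed rats had 3 genes lower at day 3 than at day 1, Ccnb2, Nusap1 and Kif20a, and 0 higher, compared to 2.22% and 1.73%. From day 3 to day 14 they had Ccne2 and Cdk2 lower and Rrm2 higher, compared to 3.5% and 4.12% of all clusters. Least squares also gave 0 calls in each of these comparisons. These comparisons use the same rats as those of the diets. The low Rrm2 of rotenone-fed rats at day 3 thus enters the comparison of diets at day 3 and both comparisons of time in rotenone-fed rats.

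Counts of lower genes depended on single rats, more so at day 3 than at day 14. Ranked over all 24 rats for the 7 genes with lower values at day 14, rotenone day 14 replicates 2 and 4 were among the 6 lowest for 6 genes. That these rats rank low follows from how the 7 genes were picked. Rats of other days also ranked low, namely rotenone day 3 replicate 1 for 6 genes and control day 1 replicate 3 and rotenone day 1 replicate 4 for 5 genes each. Control day 14 replicate 4 was among the 6 highest for 7 of 7 genes, which the way the genes were picked favours as well. Its mean of the cerebellum genes, 8.88, was the highest outside the 2 arrays with cerebellar transcripts. Rotenone day 3 replicate 2 was the highest of its group in Mki67, Top2a, Ccna2, Tpx2, Bub1 and Racgap1. Without this rat, 12 genes instead of 7 were lower at day 3 at an unadjusted p below 0.05, and 11 instead of 8 on average. Without control day 3 replicate 4, or without rotenone day 3 replicate 1, the count of day 3 was 2. The mean over all 39 genes lay between 6.48 and 6.58 in the controls of day 14 and between 6.39 and 6.49 in the rotenone-fed rats, with an overlap. For the 21 genes above the median transcript it lay between 7.04 and 7.17 in controls and between 6.96 and 7.02 in rotenone-fed rats. At day 14 the count of lower genes at an unadjusted p below 0.05 lay between 5 (without control day 14 replicate 3) and 8. The number of genes with a lower value at day 1, 12 of 39, became 7 when rotenone day 1 replicate 4 was left out and 22 when control day 1 replicate 3 was. Without both arrays that held cerebellar transcripts it was 21. At an unadjusted p below 0.05 there were then 0 genes at day 1. Lower genes at that p were 8 at day 3, 8 at day 14 and 6 on average. The share of all clusters at that p was not counted in fits without an array. How these counts moved therefore cannot be set against all clusters.

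Other genes of the cell cycle were examined from lists written with earlier results of these arrays known. Of 30 further DNA replication genes 28 were measured, of 47 further mitotic genes 46, and of 37 regulators and inhibitors 36, and 0 of them passed in limma at any day or on average. Further mitotic genes had lower values in 40 of 46 at day 3, with a median of -0.0581. At day 14 lower values were seen in 25 of 46, with a median of -0.0192. Such counts of direction, here and for the lists below, were not set against the share of all clusters with a lower value. At day 1 only 12 of 46 were lower, with a median of 0.0356 (15 of 46 and 0.0245 without the 2 arrays with cerebellar transcripts), and on average 22 of 46, with a median of 0.00397. At an unadjusted p below 0.05, 3 of them were lower at day 3 and 2 at day 14, with 0 higher at these days, whereas at day 1 there were 2 higher and 0 lower. Of all clusters 1.29% were lower at day 3 and 3.84% at day 14, and 4.45% were higher at day 1. After quantile normalization and after centring, 41 and 40 of the 46 were lower at day 3, and 38 and 37 at day 14. The medians at day 14 were -0.093 and -0.11, with 5 lower at that p under either. The share of all clusters at that p was not counted under these scalings. On the deposited scale the 2 lower genes of day 14, a share near that of all clusters, were Ncapg2, a subunit of condensin, with -0.19 ± 0.067, and the centromere gene Cenpi with -0.20 ± 0.083. The further replication genes had lower values in 13 of 28 at day 3 and in 9 of 28 at day 14, with medians of 0.0179 and 0.0412. At an unadjusted p below 0.05, 3 of them were higher and 0 lower at day 1, 1 was lower and 0 higher at day 3, and 2 were higher and 0 lower at day 14, when 6.94% of all clusters were higher. After quantile normalization and after centring, 16 and 20 of the 28 were lower at day 14, with medians of -0.00631 and -0.0493, so the sign of this median depended on the scaling. On the deposited scale the 2 higher genes of day 14, a share near that of all clusters, were Chaf1a, which encodes a subunit of a chromatin assembly factor, with 0.18 ± 0.078, and Gmnn. Gmnn, which encodes the inhibitor of replication licensing geminin, had a difference of 0.25 ± 0.091 at day 14 (adjusted p = 0.361 in limma).

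For the regulators the median was -0.0294 at day 14, and 21 of 36 had lower values, compared to 26 and 30 after quantile normalization and after centring. With an unadjusted p below 0.05 there were 3 lower and 1 higher, compared to 3.84% and 6.94% of all clusters. After quantile normalization there were 1 lower and 0 higher, and after centring 5 lower and 0 higher. On the deposited scale the 3 lower genes were Cdk4, Rbl2 and Rbl1. Cdk4, the partner of the D cyclins, had -0.24 ± 0.092. The pocket protein genes Rbl2 and Rbl1 had -0.17 ± 0.071 and -0.25 ± 0.10. The adjusted p of Cdk4, Rbl2 and Rbl1 were 0.377, 0.405 and 0.415 in limma. On that scale 1 regulator was higher at an unadjusted p below 0.05, the inhibitor gene Cdkn2a, with 0.31 ± 0.15 (adjusted p = 0.454 in limma). Rbl1 and Rbl2 belong to the complex that keeps promoters with CHR letters silent in resting human and mouse cells. Foxm1 and Mybl2, which act at such promoters in dividing cells, had -0.068 ± 0.082 and 0.10 ± 0.091 at day 14. Cdkn1a, the inhibitor induced by p53, had 0.54 ± 0.20 at day 1 (adjusted p = 0.54 in limma), which was also 0.54 without the 2 arrays with cerebellar transcripts, and 0.012 ± 0.20 at day 14.

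Markers of cells that can divide were set beside these results. All 12 markers of oligodendrocyte precursors were above the median transcript, and 12 of 12 had lower values in rotenone-fed rats at day 14, with a median of -0.185. Their mean log2 intensity lay between 10.24 and 10.53 in the controls of day 14 and between 10.04 and 10.12 in the rotenone-fed rats, without overlap. Of them 6 were lower at an unadjusted p below 0.05, compared to 3.84% of all clusters, and 1 was called, compared to 0.0378%. This gene, Gpr17, a receptor of committed precursors, passed with -1.19 ± 0.16 (adjusted p = 0.00766 in limma). Pdgfra and Cspg4, the defining genes of dividing precursors, had -0.16 ± 0.18 and -0.17 ± 0.083. At day 3 lower values were seen in 7 of 12, and the means lay between 10.46 and 10.57 in controls and between 10.32 and 10.54 in rotenone-fed rats. At day 1 the markers lay the other way, with lower values in 2 of 12, a median of 0.195 and 4 higher at an unadjusted p below 0.05, compared to 4.45% of all clusters. Without the 2 control arrays with cerebellar transcripts these were 4 of 12, 0.0413 and 1.

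Endothelium and pericyte markers had lower values at day 14 in 13 of 13, with a median of -0.284 and means of 9.26 to 9.49 in controls and 8.90 to 9.39 in rotenone-fed rats. Microglia and macrophage markers had lower values in 14 of 15, with a median of -0.123 and means of 8.12 to 8.21 compared to 7.89 to 8.04. All of these markers were above the median transcript, and 0 passed in limma. At an unadjusted p below 0.05, 5 and 4 were lower. After quantile normalization these were 2 and 2, and after centring 6 and 6. Brain stem neuron genes had a median of -0.12 at day 14 and cerebellum genes -0.187, with 8 of 13 and 11 of 16 lower. Forebrain neuron genes had 0.0275, with 2 of 6 lower. In these 3 lists 0 genes had an unadjusted p below 0.05 at day 14. At day 1 microglia and macrophage markers were lower in 1 of 15, with a median of 0.193, or in 2 of 15 and 0.0858 without the 2 arrays with cerebellar transcripts. Red cell genes had lower values in 8 of 8 at day 14, with a median of -4.37 and 5 calls (0.0378% of all clusters were called), and means of 11.0 to 12.09 in controls and 6.86 to 9.87 in rotenone-fed rats. Of these 8 genes 7 were above the median transcript. At day 1 red cell genes had lower values in 0 of 8, with a median of 0.714, and at day 3 in 7 of 8, with a median of -0.876. At day 3 rotenone-fed replicate 2, which lay with the controls for several cell cycle genes, had the highest red cell mean of its group, 11.55 compared to 9.91 to 10.51. It was also the highest of its group in the microglia, meninges, choroid plexus and brain stem neuron lists, and in the precursor list by 10.54 to 10.53. In the endothelium list, however, its mean of 9.55 was below the 9.60 and 9.72 of replicates 3 and 4.

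Tissue next to the brain stem differed between rats of day 14 as well. Choroid plexus and ependyma genes had higher values in rotenone-fed rats in 11 of 11, with a median of 0.596, and 8 of the 11 were above the median transcript. Their means were 10.37 and 8.97 in rotenone-fed replicates 1 and 3 but 7.52 and 7.46 in replicates 2 and 4, compared to 7.30 to 8.14 in controls. Meninges and fibroblast genes had lower values in 10 of 10, with a median of -0.232, and means of 7.64 to 8.85 in controls and 7.40 to 8.73 in rotenone-fed rats. In both lists the groups overlapped and 0 genes passed in limma, and 2 choroid plexus genes were higher at an unadjusted p below 0.05. Without rotenone-fed replicates 1 and 3 of day 14, again 7 of the 39 cell cycle genes were lower at an unadjusted p below 0.05, and they were the same 7. Kif2c, with 0.21 ± 0.10, was then above that p, and Mki67 had -0.97 ± 0.29 (adjusted p = 0.425 in limma). The 7 genes had been picked from these same rats, and the rats kept, replicates 2 and 4, ranked lowest for them. Their return therefore adds no support, and the share of all clusters in this fit was not counted. What part the cell types and the blood in the tissue had in the values of the cell cycle genes was not tested.

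**Figure D4:**
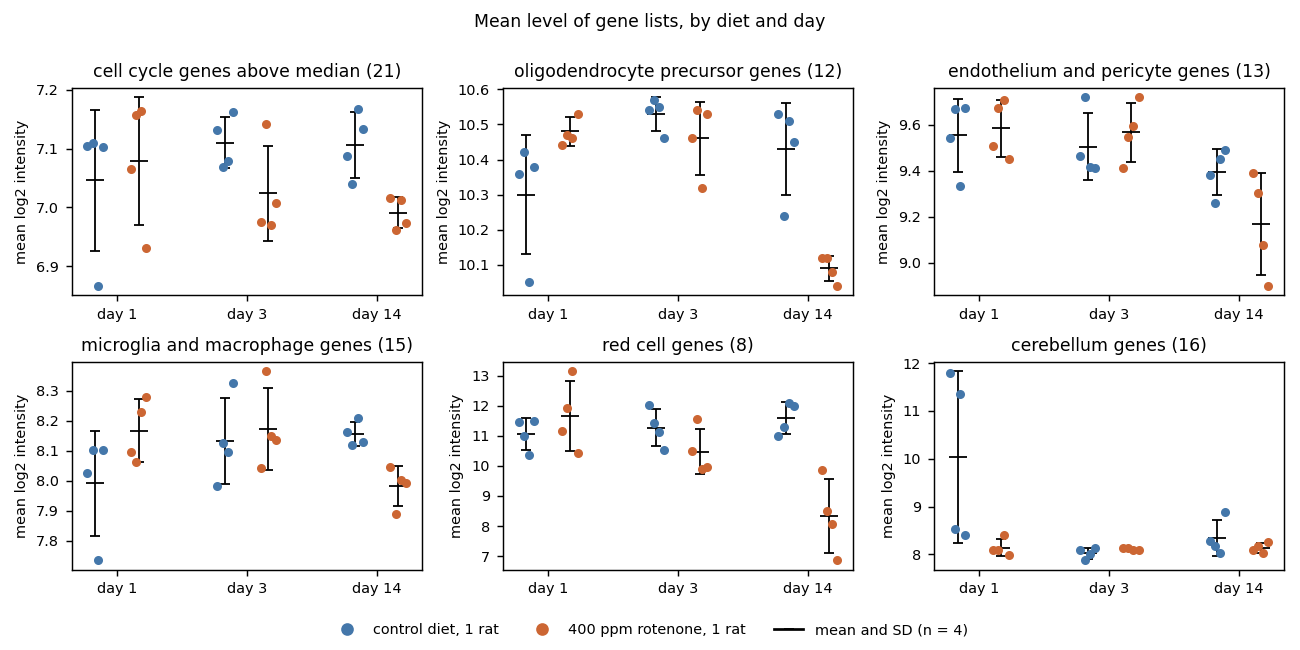
Mean log2 intensity (vertical axis) of 6 gene lists in each rat, by day (horizontal axis), with control rats in blue, rotenone-fed rats in orange and black marks for the mean and SD of 4 rats; the number of genes is given above each panel. At day 14 the rotenone-fed rats lie below all controls for the 21 cell cycle genes above the median transcript, the precursor, the microglia and the red cell genes, and 2 controls of day 1 stand apart in the cerebellum panel.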

How the data were processed

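RNA of the brain stem of 24 rats was hybridized to Affymetrix RTA 1.0 arrays, 1 rat on each. Liver and heart arrays are not analysed here. Guanine cytosine count normalization (GCCN), signal space transformation (SST) and RMA had been run by the authors, and the deposited values are intensities on a linear scale, of which log2 was taken without a further normalization. A genome build was not given in the sources used here. Of 70580 entries, 1738 control probe sets were left out, and 68842 transcript clusters were fitted. A gene was represented by its cluster with the highest mean.

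The 6 groups of diet and day were compared with limma 3.58.1 (R 4.3.3) through their means, with 18 residual degrees of freedom, Benjamini-Hochberg adjustment over all clusters and a threshold of 0.05. Deregulation by the criteria of the study was read in its least strict form. For single genes, 4 rats against 4 were set in an exact permutation test, two-sided. The labels give no batch, and which rats shared a cage is not stated.

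The genes and all lists were chosen with earlier results of these data known, so none is independent of them. Values in every rat are given for 9 leading genes, for genes whose 2 diets did not overlap at a day, and for the 2 highest and 2 lowest differences at each day and on average. Of each further list at most 3 genes of smallest p at day 14 or on average were named. Foxm1, Mybl2, Cdkn1a, Cdkn2a, Pdgfra, Cspg4, Tph2 and Hoxb5 were named after their values were seen. Alternatives were quantile normalization, centring on the array median, other moderation, clusters above the median transcript or with 1 symbol only, means of all clusters of a gene, array weights, a replicate block, the 8 arrays of a day, a cerebellum covariate, the omission of control day 1 replicates 1 and 3 and of each array in turn, and other readings of the criteria of the study. The other lists under both scalings, counts at an unadjusted p without single arrays, all values without control day 1 replicates 1 and 3 and those of day 14 without rotenone day 14 replicates 1 and 3 were added after seeing the data. The scripts were tested on simulated data. Promoter letters were searched and figures drawn in Python 3.11.15 with matplotlib 3.10.9.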

Additional observations from a re-analysis of the deposited data

Results flagged for a closer look

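In 10 of the 132 groups of 4 rats of the 22 genes given in every rat, 1 rat lay farther from the others than Dixon's limit allows, and chance gives this in about 1 of 20 groups. Control day 1 replicate 3, an array with cerebellar transcripts, stood apart in 3 genes, with Ccnd1 at 7.63 (others 8.19 to 8.30), Aurkb at 7.718 (others 5.50 to 5.82) and Kif20a at 5.938 (others 6.01 to 6.01). Control day 3 replicate 4 stood above its group in Ccna2 at 6.617 (others 6.47 to 6.48) and in Kif2c at 5.997 (others 5.81 to 5.83).

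Rotenone day 3 replicate 2 stood above the other rotenone-fed rats of its day in Ccna2 at 6.511 (others 6.21 to 6.25), in Tpx2 at 7.349 (others 7.04 to 7.09) and in Top2a at 6.314 (others 5.88 to 5.94). Rotenone day 3 replicate 1 was low in Cks2 at 5.751 (others 6.27 to 6.34), and rotenone day 14 replicate 4 was low in Plk1 at 6.564 (others 6.65 to 6.66).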

How the results depend on the processing

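Of 1104 values recomputed under alternatives, 1100 kept their direction and their side of the threshold, or moved by less than the spread. The spread used for the medians of the genes, 0.0848, was larger in size than each median, so a median could change sign and still count. That of day 1 did, as given below. Counts of genes called that stayed at 0 are also among the 1100, so this number does not measure how stable a difference was. The number of genes called was 0 of 39 in each of the 9 comparisons and by the criteria of the study, under each alternative that was run, with a range of 0 to 0 when each array was left out in turn. The median difference of the genes at day 14 was -0.131 with the arrays centred on their median, compared to -0.0401, since centring moved each of the 39 genes by -0.0905. Ccnd1 at day 1 turned from 0.11 to -0.038 without control day 1 replicates 1 and 3, and its values without 1 array lay between -0.045 and 0.25. Cdk1 at day 14, -0.078, lay between -0.14 and 0.0087 without 1 array and was -0.21 after quantile normalization and -0.17 after centring. Medians without 1 array lay between -0.021 and 0.071 at day 1, -0.11 and -0.025 at day 3, -0.093 and -0.022 at day 14, and -0.04 and -0.011 on average.

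Rats with the same replicate number did not deviate together. The mean correlation of their deviations was -0.021 compared to 0.0069 for different numbers. The 12 pairs of a day lay between -0.177 and 0.119, and 1 of them exceeded 0.1. No pairing by number was seen, but whether samples shared a cage or a batch was not tested. With the replicate block 0 of 39 genes were called in each comparison. The intensities of 18 genes at or below the median transcript and the 4 rats of each group limit what could be detected.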
